A study of Mus musculus with 18 samples.

Results

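The response to angiotensin II that aortas with and without an abdominal aortic aneurysm (AAA) have in common was examined by setting all 12 arrays of angiotensin II infused mice against the 6 arrays of saline infused mice, 18 arrays in all. The arrays were taken by the sample labels alone, so no measured value chose them. Each array held RNA from the whole aorta of 1 male ApoE-/- mouse, a strain without apolipoprotein E that is prone to atherosclerosis, and the saline controls carried the same deletion. Of the infused mice, 5 developed an aneurysm (AAA) and 7 did not (no AAA), both on angiotensin II at 1.44 µg/kg/min for 4 weeks by minipump. The labels describe the mice as 13 to 14 weeks old. By the methods this is their age when the infusion began, so the aortas came from older mice. No RNA was pooled. The outcome was not assigned but observed, and a whole aorta from arch to iliac bifurcation includes wall segments that do not dilate in this model as well as whatever tissue stays attached to the vessel.

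Angiotensin II is the effector peptide of the renin-angiotensin system. It acts through a G protein coupled receptor on smooth muscle and other vascular cells, constricts arteries, raises blood pressure, and promotes matrix synthesis and inflammation in the vessel wall. The rodent aorta is surrounded by perivascular fat, which around the thoracic segment resembles brown fat, a tissue dense in mitochondria that burns fatty acids for heat.

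Levels are given as log2 of a probe's signal over the array median, and a difference is a difference of mean levels on that log2 scale, with a standard error (SE). A probe was tested if its detection score was over 0.95 on at least 5 arrays, which left 21434 probes. A probe was called higher or lower when its Benjamini-Hochberg adjusted p in limma was under 0.05. It was said to have moved alike when it was called in the same direction in angiotensin II, in AAA and in no AAA, each against saline, and the 95% interval of AAA minus no AAA lay within 1.5-fold either way, 0.585 on the log2 scale. The comparisons of AAA and of no AAA with saline share the 6 saline arrays. Gene names were known for 1547 of the tested probes (7.22%), belonging to 1340 genes. All of them come from lists that the study had selected on these same arrays, so counts of named genes are not independent evidence of a direction. Some of those lists required a 2-fold gap by aneurysm outcome, which leaves little room for a gene to count as alike. Among named genes, counts of likeness or of differences by outcome are therefore not independent evidence either. In the gene lists below, the measured members are those named in this way. The other listed genes may lie among the unnamed probes, so that all or nearly all measured members of a list being called follows in part from how they came to be named.

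The 6 saline arrays made up 1 BeadChip (a slide of 6 arrays), no AAA 1 to 6 the next, and AAA 1 to 5 with no AAA 7 the last. Angiotensin II and saline therefore cannot be told apart from the BeadChip in any result below. AAA and no AAA also lay on different BeadChips except for no AAA 7. Differences and likeness between the outcomes can thus be separated from the BeadChip only through that array. Detected probes per array ran from 20057 to 21052 with AAA, from 19438 to 20676 without it and from 18647 to 19661 with saline, and the median signal of an array was 122.0 to 142.6 with angiotensin II and 108.1 to 126.8 with saline. The median tested probe lay 0.16 higher with angiotensin II than with saline. The smooth muscle gene Acta2 was detected on all 18 arrays, as were the fat genes Adipoq and Ucp1.

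Of the tested probes, the angiotensin II arrays were higher for 8327 (38.8%) and lower for 2233 (10.4%). Against saline, AAA alone was higher for 30.5% and lower for 9.22%, and no AAA alone for 35.0% and 10.1%. AAA was higher than no AAA for 10.8% and lower for 8.46%. In all, 3408 (15.9%) rose alike and 1049 (4.89%) fell alike in both outcomes. The split between rises and falls depended on the scaling. After quantile normalisation 4401 were higher and 3166 lower, with 1298 rises and 1628 falls alike. Scaled to the 75th percentile 4145 were higher and 3586 lower. Scaled to the median of the probes detected on every array 3087 were higher and 4630 lower. Most rises were small, and of the probes that moved alike by 2-fold or more, 15 rose (0.07%) and 195 fell (0.91%). At the study's threshold of 2-fold and an unadjusted p under 0.05, applied to the limma fit, 229 were higher (1.07%) and 486 lower (2.27%). All 12 angiotensin II arrays lay above all 6 saline arrays for 1368 probes (6.38%) and below them for 779 (3.63%).

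Among the 1340 named genes, 663 were higher (49.5%) and 503 lower (37.5%), and 35 rose alike (2.61%) while 174 fell alike (13.0%). Falls alike outnumbered rises alike among the named genes, whereas among all tested probes 3408 rose and 1049 fell alike on the same scale. Falls were in excess there after the 3 other scalings and at 2-fold or more. The named falls included enzymes of fatty acid oxidation, the citric acid cycle and the respiratory chain. Of the 663 named rises 35 were alike, whereas 3408 of 8327 rises were alike among all tested probes. With AAA 673 of the named genes (50.2%) were higher and 7.54% lower than without it, against 10.8% and 8.46% of all tested probes. Some of the lists that gave the names were picked for unequal levels by outcome, so these shares follow in part from the naming. Against saline, AAA was higher for 53.5% and lower for 36.2% of the named genes, and no AAA for 31.3% and 37.8%. Just inside the 1.5-fold limit were Abcd2 and H4c8, whose farther interval end was 0.584 for both, and just outside it were Sdsl and Dtnb at 0.586.

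The treatments did not overlap for 165 of the 174 named genes that fell alike and for 32 of the 35 that rose alike. The 12 largest falls and 12 largest rises were chosen from these, so their lack of overlap follows from the choice. The gene that fell most among them was Fbp2, the muscle type of fructose-1,6-bisphosphatase, an enzyme of gluconeogenesis. Its levels in the AAA arrays were 0.47, 0.23, 0.82, 1.05 and 1.1. In no AAA they ranged from 0.43 to 1.41 with a median of 0.56, and in saline from 2.59 to 4.01 with a median of 3.25. All angiotensin II arrays lay below all saline arrays, and the outcomes overlapped. The level was 2.52 lower with angiotensin II (SE 0.18, 5.75-fold, limma adjusted p = 9.5e-08), and AAA minus no AAA was 0.05 with an interval of -0.39 to 0.49. For Dmtn, which encodes the actin bundling protein dematin, the AAA arrays read 0.40, 0.67, 1.19, 0.99 and 1.31. No AAA ranged from 0.15 to 1.84 (median 0.71) and saline from 3.14 to 3.62 (median 3.17). The groups of treatment did not overlap, and the fall was 2.41 (SE 0.19, limma adjusted p = 1.1e-07). Pank1, a pantothenate kinase that starts coenzyme A synthesis, fell by 2.17 in AAA and by 2.17 in no AAA. Slc4a4, a sodium bicarbonate cotransporter, fell by 1.99 and by 2.08. Other large falls without overlap of treatments were those of Poln (DNA polymerase nu, -2.38), Paqr9 (-1.97), the mitochondrial pyruvate carrier subunit Mpc2 (-1.81) and 2 unnamed transcripts, 2010003K11Rik (-2.06) and A530088L04Rik (-2.02), each detected on 8 of 12 angiotensin II arrays.

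**Figure D1:**
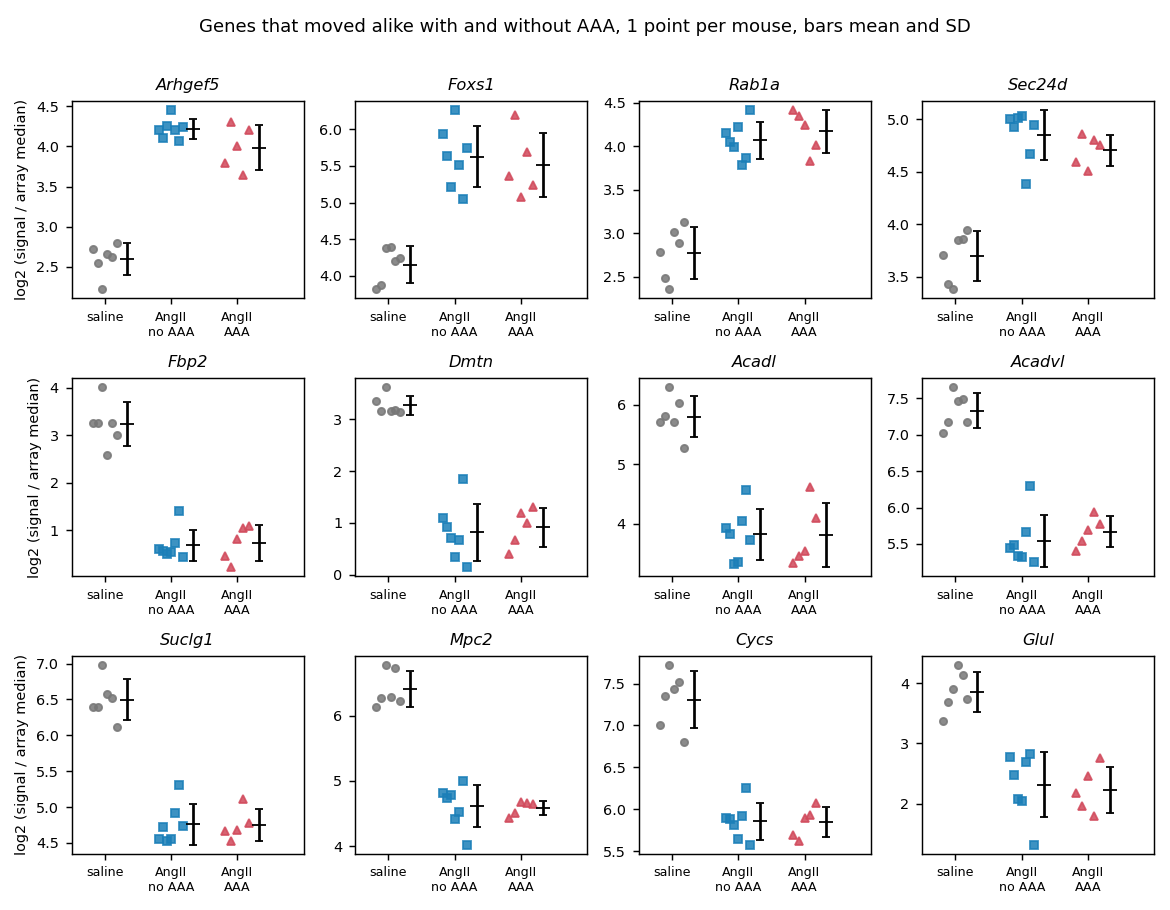
Levels of 12 genes that moved alike, as log2 of signal over the array median on the vertical axis, by group on the horizontal axis, with 1 point per mouse and the mean and SD beside each group (6 saline, 7 no AAA, 5 AAA). In each panel all 12 angiotensin II points lie on the same side of all 6 saline points, and the AAA and no AAA points overlap. All were chosen as alike and most also for arrays apart, so both traits follow in part from the choice.

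Promoter stretches of Fbp2 and Tef are shown because each holds a motif searched for below. The windows are RefSeq sequence of build GRCm38.p6, 5′ to 3′ on the strand of the gene and ending at or before the transcription start, and the capitals mark the motif found on either strand. Fbp2 lies on the minus strand at chr13:62858401-62858487 and Tef, a clock output gene, on the plus strand at chr15:81802501-81802596. In both the capitals are an E-box (CACGTG), the letters read by the CLOCK and ARNTL pair.
Fbp2: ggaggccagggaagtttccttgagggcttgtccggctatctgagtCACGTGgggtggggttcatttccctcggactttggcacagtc
Tef: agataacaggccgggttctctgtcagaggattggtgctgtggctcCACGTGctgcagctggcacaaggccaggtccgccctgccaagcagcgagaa

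An E-box was present in the 250 bases before the start of 15 of the 127 genes that fell alike and had a window (11.8%), of 3 of the 23 that rose alike (13.0%), and of 1854 of 27025 genes overall (6.86%). It was in 6 of 72 measured genes of fatty acid oxidation, citric acid cycle and respiratory chain (8.33%). Of 7 measured clock genes with a window only Tef had it. The overall share counts genes whether or not they were expressed here, and no difference from it was tested. A D-box (TTANGTAA) was present in 1 of 127 and in 1 of 23, against 2.44%. The longer element of the estrogen-related receptors (TCAAGGTCA), known from genes of oxidative metabolism, was in 0 of 127, in 0 of 23 and in 0.422% of all genes. Each motif was searched on both strands, the palindromic E-box counting once, and these letters alone are not a binding site.

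Enzymes of fatty acid oxidation fell together. All 25 measured members of that list were lower with angiotensin II and 17 fell alike, against 37.5% and 13.0% of all named genes. The median difference was -1.39 (AAA -1.22, no AAA -1.40), against 0.16 for all tested probes. Members were named through lists selected on these arrays, so the gap to the median tested probe follows in part from the naming. Acadl, the long chain acyl-CoA dehydrogenase, had levels of 3.34, 3.45, 3.54, 4.62 and 4.09 in AAA. It ranged from 3.32 to 4.57 (median 3.82) without AAA and from 5.27 to 6.29 (median 5.75) in saline. No angiotensin II array reached the lowest saline array, and the fall of 1.98 (SE 0.20, limma adjusted p = 6.9e-07) was 1.99 in AAA and 1.98 in no AAA. A second probe for Acadl read -1.01, so the size depends on the probe. Acadvl, the very long chain enzyme, read 5.40, 5.54, 5.69, 5.94 and 5.78 in AAA, 5.25 to 6.30 (median 5.45) without AAA and 7.02 to 7.65 (median 7.32) in saline. It fell by 1.73 (SE 0.14, limma adjusted p = 1.1e-07). Acsl1, which activates long chain fatty acids to their coenzyme A esters, fell by 1.80 (AAA -1.83, no AAA -1.79).

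The citric acid cycle and pyruvate dehydrogenase, which feed the respiratory chain with electrons, gave the same picture. All 17 measured members were lower and 12 fell alike (37.5% and 13.0% of all named genes), with a median of -1.35. Suclg1, a subunit of succinyl-CoA ligase, read 4.66, 4.52, 4.68, 5.11 and 4.78 in AAA. No AAA ranged from 4.52 to 5.31 (median 4.72) and saline from 6.12 to 6.98 (median 6.46). The treatments did not overlap, and the fall was 1.74 (SE 0.13, limma adjusted p = 9.7e-08), with AAA minus no AAA at -0.01 (interval -0.32 to 0.30). Pdhb, a subunit of the E1 enzyme of pyruvate dehydrogenase, fell by 1.64. Pdk2, a kinase that inhibits the same complex, fell by 1.56.

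Of 77 listed genes of the respiratory chain and ATP synthase 44 had a named probe. All 44 were lower and 20 fell alike, against 37.5% and 13.0% of all named genes. The median was -1.16 (AAA -1.24, no AAA -1.17). Cycs, cytochrome c, which carries electrons between complexes III and IV, read 5.70, 5.63, 5.90, 5.93 and 6.08 in AAA. It ranged from 5.58 to 6.25 (median 5.89) without AAA and from 6.80 to 7.72 (median 7.39) in saline, with no overlap between treatments. The fall was 1.45 (SE 0.12, limma adjusted p = 1.8e-07). Ndufa10 of complex I fell by 1.44 and Sdhb of complex II by 1.42. Hspa9, a chaperone of the mitochondrial matrix, fell by 0.96. The array no AAA 7 stood lowest for the whole list, with its members 2.06 below the saline mean on average, against 0.71 to 1.22 below in the other 6 no AAA arrays. Without it 48 of the 54 alike genes chosen by rule were still alike, and all 54 were still called.

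Genes of fat fell with them. All 17 measured brown fat genes were lower (median -1.81) and 4 fell alike, against 37.5% and 13.0% of all named genes. Letmd1, a mitochondrial membrane protein needed for brown fat thermogenesis, fell by 1.81 (AAA -1.85, no AAA -1.78), with all 12 angiotensin II arrays below all 6 saline arrays. Ucp3, a mitochondrial uncoupling protein, was detected on 6 of 6 saline arrays and on 3 of 12 angiotensin II arrays, so its difference of -1.36 is against a level mostly not above background. Elovl3, a fatty acid elongase typical of brown fat, was detected on all 6 saline arrays, at 0.79 to 2.03, and on none of the 12 angiotensin II arrays. It was therefore at least 2.12-fold lower (limma adjusted p = 3.8e-07), taking the dimmest detected signal of each array as the limit. Of 30 measured genes of white fat and lipid droplets 28 were lower. In AAA 25 were lower and 2 higher, in no AAA 27 and 0, and 8 were higher and 0 lower with than without AAA. Only 3 of the 30 fell alike, where 13.0% of all named genes did. They were Lpin1 (-1.64), a phosphatidate phosphatase of triglyceride synthesis, the lipid droplet protein Plin5 (-1.48) and the acyltransferase Mogat1 (-1.21). Plin5 was detected on 6 and Mogat1 on 10 of the 12 angiotensin II arrays, so their differences are partly against background. All 29 measured genes of lipogenesis and glucose use were lower and 7 fell alike, again against 37.5% and 13.0%. Among the 7 were Insig1 (-1.57), which restrains sterol synthesis, Hk2 (-1.50), which commits glucose to glycolysis, and Gpam (-1.46), the first enzyme of glycerolipid synthesis.

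All 16 measured genes of amino acid and nitrogen metabolism were lower and 7 fell alike, against 37.5% and 13.0% of all named genes. Glul, glutamine synthetase, read 2.17, 1.97, 2.46, 1.80 and 2.76 in AAA, 1.32 to 2.82 (median 2.47) without AAA and 3.38 to 4.30 (median 3.82) in saline. It fell by 1.58 (SE 0.20, limma adjusted p = 6.3e-06) with no overlap of treatments. Bckdha, a subunit of the enzyme that commits branched chain amino acids to breakdown, fell by 1.33, and Acat1, which cleaves acetoacetyl-CoA in mitochondria, by 1.23.

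Markers of other tissues moved beside these genes, where 37.5% of all named genes were lower. All 5 measured adipocyte markers were lower (median -1.30), and their members averaged 0.64 to 1.87 below the saline mean in AAA and 0.73 to 2.45 below in no AAA, against -0.34 to 0.44 among the saline arrays. The summed level of those markers was 7.19 to 8.02 in AAA, 5.86 to 7.75 without AAA and 8.34 to 9.05 in saline. All 7 brown adipocyte markers were lower (median -2.57), with a summed level of 7.47 to 9.01 in AAA, 6.22 to 9.40 without AAA and 10.08 to 10.59 in saline. All 12 of these fat markers were detected on all saline arrays, and Elovl3 on no angiotensin II array. Ucp1, the uncoupling protein of brown fat, stood at 8.58 to 8.68 in saline, close to the brightest probe of an array at 8.87 to 9.17, and at 4.15 to 8.43 with angiotensin II. Of 8 measured markers of heart and striated muscle 7 were lower (median -1.37), and by the methods' t-test 5 were. Their summed levels were 5.00 to 5.95 in AAA, 5.49 to 6.58 without AAA and 6.72 to 8.41 in saline. Averaged over members and set against the saline mean, however, the treatments overlapped. The arrays no AAA 5 (-0.64) and no AAA 6 (-0.50) stood above saline 6 (-0.85), while saline 4 was the highest array (1.28). Only 1 of the 8 markers had all angiotensin II arrays below all saline arrays. Markers of sympathetic nerve were not lower in both outcomes. Of 9, 8 were called lower with angiotensin II, 0 in AAA and 9 in no AAA, and the count of 8 was 3 with the BeadChip as random block and 1 by the methods' t-test. Their summed levels overlapped between treatments, at 3.73 to 5.96 in AAA, 3.23 to 4.74 without AAA and 4.04 to 7.21 in saline. All 5 erythroid markers were lower as well (median -1.0), 5 in AAA and 2 in no AAA. The part of these tissues in the fall of the mitochondrial and lipid genes was not tested, and in whole aorta fewer cells of a type and less RNA per cell cannot be told apart.

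**Figure D2:**
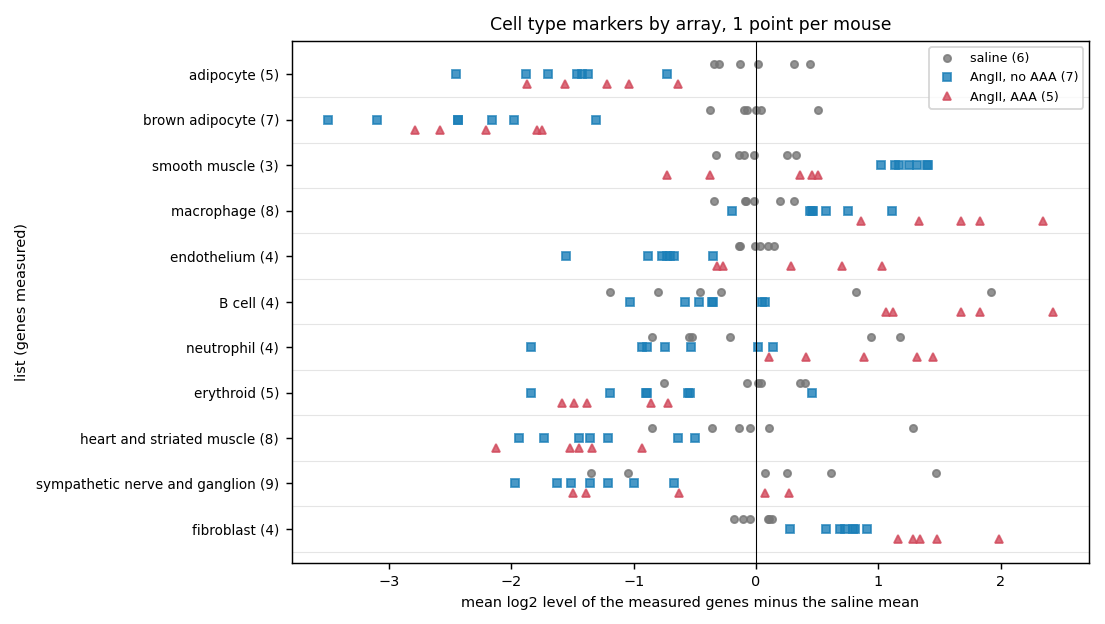
Cell type markers by array. The horizontal axis is the mean log2 level of a list's measured genes minus its saline mean, the rows are the lists with the number of genes measured, and each point is 1 mouse (grey saline, blue no AAA, red AAA). Adipocyte and brown adipocyte markers of all 12 angiotensin II arrays lie left of all 6 saline arrays, and macrophage markers range from 0.86 to 2.35 in AAA and from -0.20 to 1.11 in no AAA.

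Among the named genes those that rose alike were fewer than those that fell alike, and they had diverse roles. Arhgef5, an exchange factor that activates small GTPases, read 3.79, 4.30, 4.00, 3.64 and 4.20 in AAA. No AAA ranged from 4.07 to 4.46 with a median of 4.21, and saline from 2.22 to 2.80 with a median of 2.64. All 12 angiotensin II arrays lay above all saline arrays. The rise was 1.53 (SE 0.10, 2.89-fold, limma adjusted p = 7.8e-08), and AAA minus no AAA was -0.23 with an interval of -0.48 to 0.01. Foxs1, a forkhead transcription factor, read 5.36, 6.19, 5.08, 5.69 and 5.24 in AAA, 5.05 to 6.27 (median 5.64) without AAA and 3.82 to 4.39 (median 4.23) in saline. It rose by 1.43 (SE 0.17, limma adjusted p = 4.1e-06), again without overlap between treatments. Rhod, a small GTPase, rose by 0.99.

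Rab1a and Sec24d both act in vesicle transport from the endoplasmic reticulum to the Golgi, Rab1a as a GTPase and Sec24d as a cargo subunit of the COPII coat. Rab1a read 4.42, 4.34, 4.24, 3.83 and 4.01 in AAA, 3.78 to 4.41 (median 4.05) without AAA and 2.36 to 3.13 (median 2.84) in saline. It rose by 1.33 (SE 0.12, 2.51-fold, limma adjusted p = 3.4e-07), and Sec24d by 1.1 (SE 0.11, limma adjusted p = 6.4e-07), both with every angiotensin II array above every saline array. Of the annexins, which bind membranes in the presence of calcium, Anxa1 rose by 1.14 and Anxa4 by 1.09. Lbh, a transcriptional cofactor of limb and heart development, rose by 1.17, and Vgll3, a cofactor of TEAD factors, by 1.08. Wsb1, a subunit of a ubiquitin ligase, rose by 1.11. Lonrf3 (1.05) and Tmem45a (1.01) completed the 12 largest rises without overlap among named genes that moved alike. Which genes count as alike rested on the arrays used. Of the 54 chosen by rule, 35 were still alike without AAA 1, 38 when the BeadChip was fitted as a random block, and 2 when only the last BeadChip was set against saline, where a single array stood for no AAA.

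**Figure D3:**
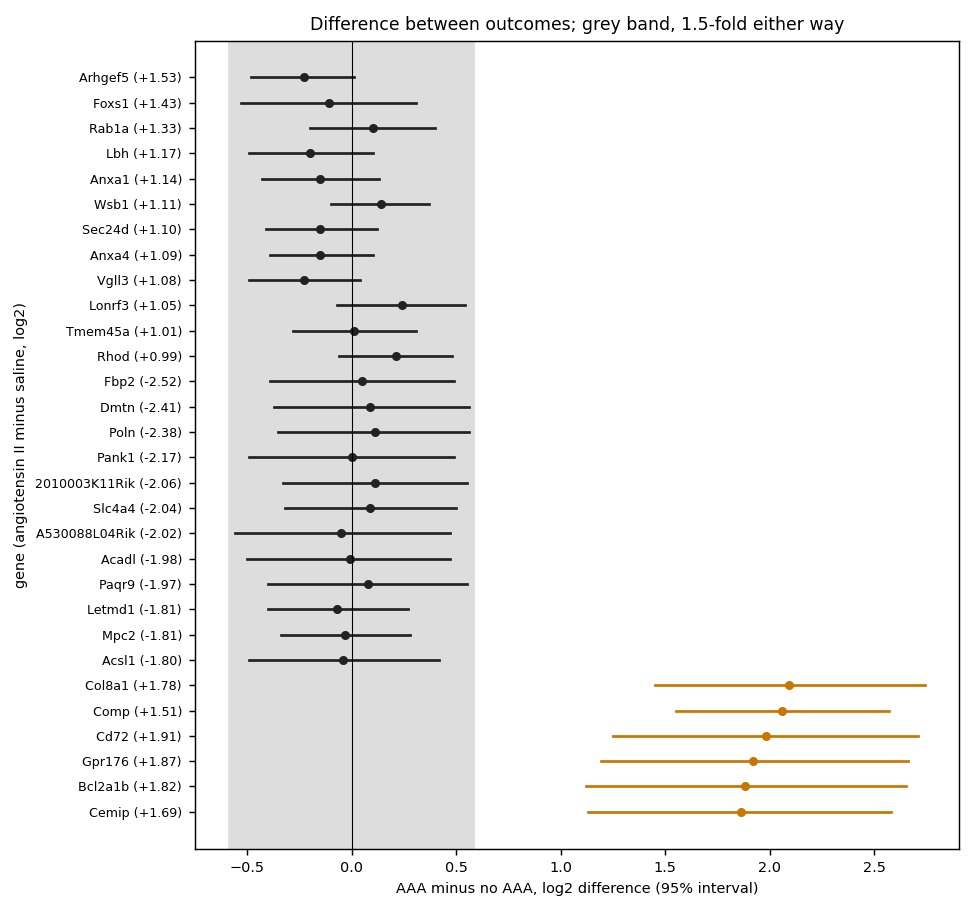
Difference between outcomes, AAA minus no AAA, on the log2 scale (horizontal axis, point and 95% interval) for the 12 largest rises and 12 largest falls that moved alike (black) and for the 6 genes that moved in the same direction but least alike (orange). The number beside each gene is the difference between angiotensin II and saline, and the grey band is 1.5-fold either way. The black intervals lie within the band, and the orange intervals lie above it.

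Genes of the extracellular matrix were mostly higher with angiotensin II, as were 49.5% of all named genes. Few moved alike, but few of all named genes rose alike either (2.61%). All 25 measured genes of collagens and collagen processing were higher with angiotensin II (median 1.01), yet the median was 1.28 in AAA and 0.68 in no AAA, 18 were higher with than without AAA, and 1 moved alike. Of the 25, 24 were called higher in AAA and 20 in no AAA. The 4 measured fibroblast markers moved beside them, all 4 higher (median 1.0, with 1.47 in AAA and 0.72 in no AAA), at summed levels of 8.11 to 9.03 in AAA, 7.55 to 7.83 without AAA and 6.76 to 7.1 in saline. Their part in the rise of the matrix genes was not tested. The 1 gene of the collagen list that moved alike was Fkbp14, a prolyl isomerase of collagen folding, which rose by 0.88 (AAA 1.05, no AAA 0.75). Its interval of AAA minus no AAA was 0.01 to 0.58. By the methods' t-test, and with the BeadChip as a random block, 0 genes of the collagen list moved alike. All 12 genes of elastic fibres and cross-linking were higher, and 11 were called in AAA and 11 in no AAA. By limma 0 moved alike, as at unadjusted p values and by the methods' t-test. These counts all keep the 1.5-fold limit on the interval, so they are not separate evidence. With 2.61% of all named genes rising alike, 0 of 12 says little about this list. Of 26 matricellular proteins and proteoglycans 24 were higher and 1 moved alike. Bgn, the small proteoglycan biglycan, read 7.78, 7.91, 8.08, 7.84 and 8.37 in AAA, 7.46 to 8.13 (median 7.80) without AAA and 6.75 to 7.2 (median 6.93) in saline, a rise of 0.93 without overlap of treatments (SE 0.11, limma adjusted p = 3e-06). Of 24 matrix proteases and inhibitors 21 were higher, 22 in AAA and 15 in no AAA, and 3 rose alike, the lysosomal cathepsins Ctsb (0.90) and Ctsh (0.86) and the aggrecanase Adamts5 (0.87). These 3 rose more in AAA (1.06, 1.03 and 1.06) than in no AAA (0.78, 0.74 and 0.74). Their intervals of AAA minus no AAA were 0.02 to 0.54, 0.01 to 0.58 and 0.08 to 0.57. By the methods' t-test 1 member of this list rose alike.

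Signalling genes gave 1 rise alike in each list, where 49.5% of all named genes were higher and 2.61% rose alike. Of 22 measured TGF-beta, BMP and Wnt regulators 20 were higher, and 11 were higher and 5 lower with than without AAA. Tgfb3, a ligand of the TGF-beta family, rose alike by 0.93 (AAA 0.83, no AAA 1.00). Its AAA arrays read 4.76, 4.56, 4.54, 4.53 and 4.59, its no AAA arrays 4.30 to 5.10 and its saline arrays 3.60 to 4.06. Of 20 measured genes of angiotensin II signalling and G protein regulation 14 were higher and 1 lower. In AAA 13 were higher and 2 lower, in no AAA 9 and 1, and 12 were higher and 5 lower with than without AAA. Prkcd, protein kinase C delta, rose alike by 0.86, with levels of 4.00 to 4.91 in angiotensin II and 3.26 to 4.05 in saline, which overlapped slightly. Adra1a, an alpha-1 adrenergic receptor of the sympathetic constrictor response, fell alike by 1.12, with 0.03 to 1.19 in angiotensin II and 1.53 to 2.03 in saline. Of the renin-angiotensin system only the aminopeptidase Anpep, which degrades angiotensin III, was measured under a name. It read 4.32, 3.53, 4.12, 3.56 and 3.59 in AAA, 2.26 to 3.11 (median 2.66) without AAA and 1.75 to 2.37 (median 2.12) in saline. Its rise of 1.06 was 1.73 in AAA and 0.58 in no AAA, and the outcomes differed by 1.15 (SE 0.17, limma adjusted p = 0.00031).

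Genes of the circadian clock were called with angiotensin II in both directions. The clock is a feedback loop that runs in vascular cells as elsewhere, with ARNTL and its partners CLOCK or NPAS2 driving repressors such as PER2 and output factors such as DBP and TEF. Of 24 listed genes 10 had a named probe. With angiotensin II 3 of these were higher and 7 lower, against 49.5% and 37.5% of all named genes. In AAA 3 were higher and 6 lower, and in no AAA 3 and 7. The other 14 were not analysed here. The methods give no hour of day for the harvest, and its part in these differences was not tested. Arntl read 3.32, 3.69, 2.20, 3.74 and 3.06 in AAA, 2.6 to 4.17 without AAA (median 3.41) and 0.21 to 1.33 in saline (median 1.16). No arrays of the treatments overlapped. The rise was 2.29 (SE 0.23, 4.89-fold, limma adjusted p = 7.1e-07). Npas2 rose by 1.58 and Nfil3, which represses through the D-box, by 1.37, with the lowest angiotensin II array of Nfil3 at 3.77 and the highest saline array at 3.69.

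In the opposite direction, Dbp read 4.71, 4.92, 6.00, 4.70 and 5.44 in AAA, 3.99 to 6.31 (median 4.59) without AAA and 6.32 to 6.90 (median 6.56) in saline. It fell by 1.58 (SE 0.26, limma adjusted p = 9.8e-05), with the highest angiotensin II array just below the lowest saline array. Tef, whose promoter is shown above, fell by 1.08 (AAA -1.11, no AAA -1.06), from 6.18 to 6.80 in saline to 4.79 to 5.72. The deubiquitinase Usp2, a clock output, fell by 1.16, and both Usp2 and Tef moved alike. For Arntl, Npas2, Nfil3, Dbp and Noct the outcomes were not called different, but the interval of the difference passed the 1.5-fold limit, from -0.75 to 0.37 for Arntl and from -0.40 to 0.90 for Dbp. Per2 fell by 0.80 (interval of AAA minus no AAA -0.77 to -0.02), and the deadenylase Noct by 1.01. The repressor Bhlhe40 was 0.84 lower in all, but it was not called in AAA (-0.53, limma adjusted p = 0.068) and the interval of AAA minus no AAA was 0.09 to 1.0. The arrays of all 3 genes overlapped between treatments. The counts of clock genes called were 3 higher and 7 lower under every scaling tried.

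**Figure D4:**
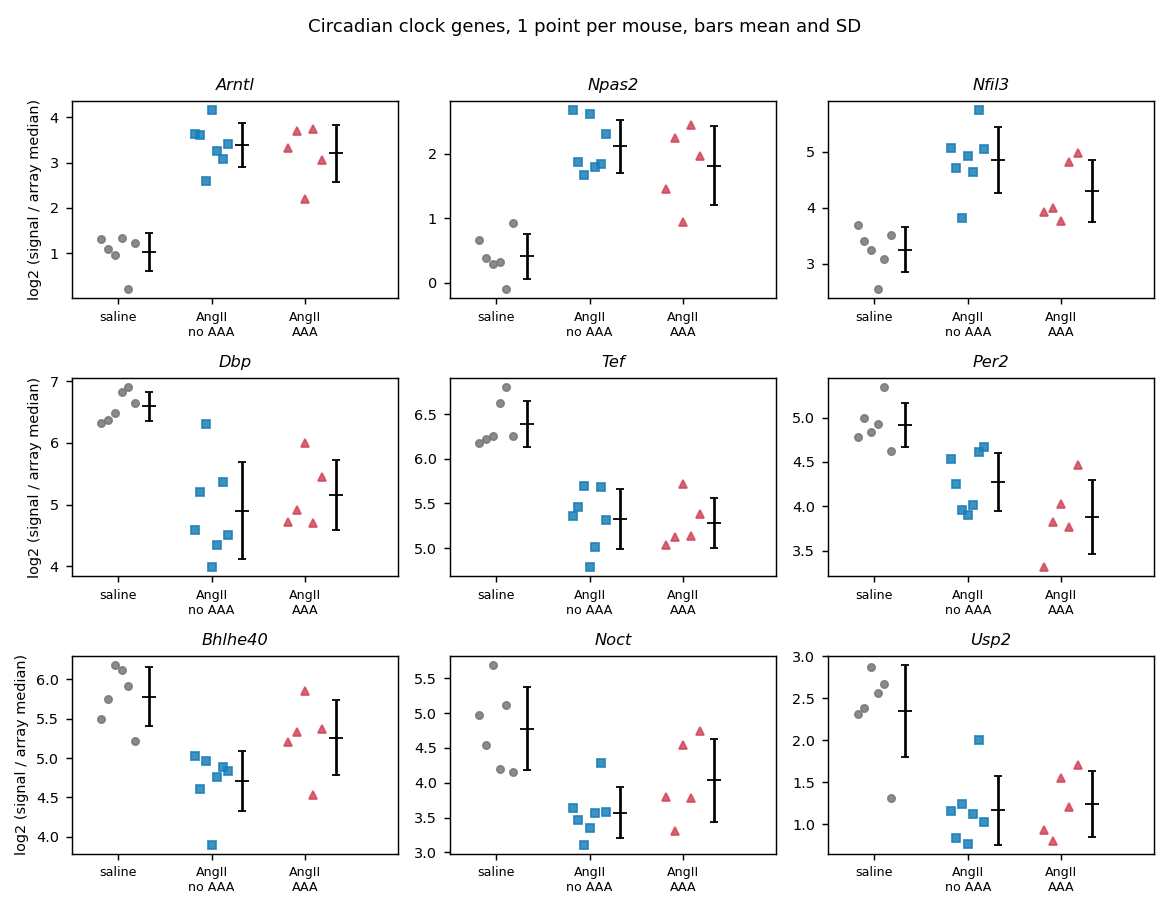
Levels of 9 measured circadian clock genes, as log2 of signal over the array median (vertical axis) by group (horizontal axis), with 1 point per mouse and the mean and SD beside each group. Arntl, Npas2 and Nfil3 are higher and Dbp and Tef lower on all 12 angiotensin II arrays than on all 6 saline arrays, and the other genes overlap.

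The genes called in the same direction in both outcomes that differed most between them were all higher in AAA. Comp, cartilage oligomeric matrix protein, read 7.10, 5.78, 6.64, 6.52 and 5.69 in AAA, 3.48 to 5.00 (median 4.41) without AAA and 3.34 to 4.02 (median 3.58) in saline, so that AAA lay apart from both other groups. It was 2.06 higher with than without AAA (limma adjusted p = 8.2e-05). Col8a1, a short chain collagen of vessels, differed by 2.09, the B cell and macrophage receptor Cd72 by 1.98, the orphan receptor Gpr176 by 1.92 and the survival gene Bcl2a1b by 1.88. Cemip, a hyaluronan depolymerising protein, was detected on all 12 angiotensin II arrays and on 0 of 6 saline arrays, at least 2.23-fold higher, and differed by 1.86 between outcomes. Bcl2a1b belongs to a family of near-identical copies, and its probe may read more than 1 of them.

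Some lists had few or no members alike, where 2.61% of all named genes rose alike and 13.0% fell alike. Among all named genes 49.5% were higher and 37.5% lower. All 28 measured macrophage genes were higher, 0 moved alike (0 also at unadjusted p values in limma and 0 by the methods' t-test), and 27 were higher with than without AAA. The counts of 0 all keep the 1.5-fold limit on the interval, so they are not separate evidence. Of 30 genes of cell division 26 were higher with angiotensin II, 30 in AAA and 3 in no AAA, each against saline. Of 22 chemokines 12 were higher and 1 lower, a share of rises close to that of all named genes. In AAA 19 were higher and 0 lower, in no AAA 4 and 2, and 21 were higher with than without AAA. Of 11 contractile smooth muscle genes 8 were higher and 1 lower with angiotensin II, 2 and 3 in AAA and 9 and 1 in no AAA, while 9 were lower with than without AAA. Of 19 plasma proteins 4 were higher and 13 lower. In AAA 6 were higher and 6 lower (median -0.30), in no AAA 2 and 13 (median -1.37), and 11 were higher with than without AAA. Of 9 heat shock and immediate early genes 3 were higher and 2 lower.

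**Figure D5:**
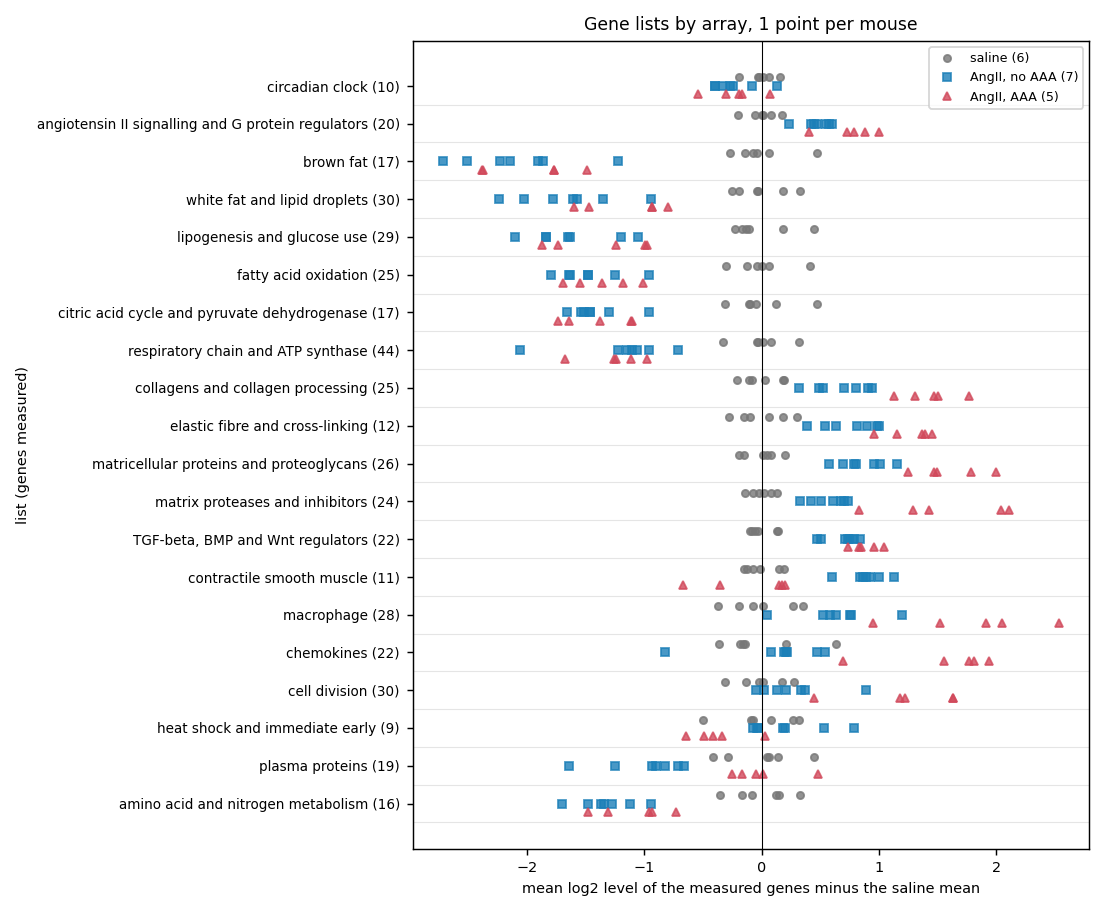
Gene lists by array. The horizontal axis is the mean log2 level of a list's measured genes minus its saline mean, the rows are 20 lists with the number of genes measured, and each point is 1 mouse (grey saline, blue no AAA, red AAA). In the lists of fatty acid oxidation, the citric acid cycle and the respiratory chain the red and blue points overlap and lie left of all saline points, whereas in the collagen and macrophage lists the red points lie mostly to the right of the blue.

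Set against saline separately by BeadChip, the difference of Fbp2 was -2.50 on the BeadChip of no AAA 1 to 6 and -2.55 on the BeadChip of AAA, and Arhgef5 was 1.62 and 1.44 higher. Both genes were chosen as alike and these BeadChips nearly coincide with the outcomes, so the likeness follows in part from the choice. Comp, chosen as differing between outcomes, was 0.78 and 2.24 higher. Saline lay on a BeadChip of its own, so these values cannot separate treatment from BeadChip.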

How the data were processed

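RNA of whole aortas was hybridised to Illumina Mouse-6 v1.1 BeadChips. The authors scanned the arrays and summarised beads with BeadStudio 2, and their deposited table gives, without normalisation, a mean signal intensity and a detection score, a fraction from 0 to 1, for each probe and array. Of its columns, 108 further per-array columns were not used. Averaging repeated IDs and leaving out bacterial controls gave 46624 probes, with signals from 43.9 upward. Arrays were assigned by the sample descriptions. A deposited matrix of ratios, with chip and gene normalisation by the authors, was not used because 12 of its 18 columns hold another array's values.

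Each signal was divided by the array median and expressed as log2. Means of the groups (5 AAA, 7 no AAA and 6 saline arrays) were fitted with limma 3.58.1 in R 4.3.3 (eBayes with trend), and angiotensin II was the mean of AAA and no AAA weighted by array number. Adjustment was by Benjamini-Hochberg over 21434 probes. The pipeline was tested on simulated data. A gene was represented by its probe with the highest mean signal. Names came from the study's additional files, updated through RefSeq accessions for 1237 probes, symbols for 96 and synonyms for 109, with 107 kept as listed. No other probe annotation was used.

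Of 589 genes in 21 lists, 436 were measured, and 12 marker lists were kept beside them. Members and lists were chosen with earlier results of these data known. Genes are described in detail by rule: the 12 largest rises and 12 largest falls that moved alike with arrays apart, the 3 largest alike in each list, all measured clock and renin-angiotensin genes, and the 6 that differed most between outcomes among those called in the same direction in both, 68 genes in all, of which 1 clock gene is not reported here by name, although the counts include it. Abcd2, H4c8, Sdsl, Dtnb and the cell markers are outside that rule and were named as threshold neighbours or markers. Each mouse gave 1 array, so p values measure the spread between mice. The number of arrays limits the precision. Alternatives covered scaling, background correction (normexp, offset 50), probe filters, the test (including the methods' t-test, unpaired with unequal variance, on the same values), BeadChip and replicate blocks, and each array left out. Promoter windows are RefSeq sequence (GRCm38.p6, 27025 genes). Figures used Python 3.11.15, pandas 2.3.3, numpy 2.4.6 and matplotlib 3.10.9.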

Additional observations from a re-analysis of the deposited data

Results flagged for a closer look

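Among the 68 genes described in detail, 7 differed between AAA and no AAA by limma's adjusted p, and all were higher in AAA. Of these, 6 were among the 68 because they differed most between outcomes, so the count and the direction follow from the choice of genes. The differences were 2.09 for Col8a1 (adjusted p = 0.00035), 2.06 for Comp (8.2e-05), 1.98 for Cd72 (0.00091), 1.92 for Gpr176 (0.0011), 1.88 for Bcl2a1b (0.0016), 1.86 for Cemip (0.0013) and 1.15 for Anpep (0.00031).

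In 10 of 204 groups of arrays 1 array lay apart from the rest of its group by Dixon's criterion, and chance alone gives about 1 in 20, or 10.2. No AAA 6 was the highest of its group for Fbp2 (1.41, next 0.73), Usp2 (2.01, next 1.24) and Acadvl (6.30, next 5.66). Saline 6 was the lowest of its group for Usp2 (1.32, next 2.31) and Sdhb (6.44, next 7.14). No AAA 4 was lowest for Bhlhe40 (3.90, next 4.61) and 2010003K11Rik (-0.54, next 0.06). The others were no AAA 3 for Vgll3 (3.70, next 4.03), saline 5 for Arntl (0.21, next 0.97) and AAA 1 for Tgfb3 (4.76, next 4.59). Leaving out any 1 of these arrays lost no call of angiotensin II against saline among the 68 genes.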

How the results depend on the processing

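Of 2365 recomputed differences of the 68 genes, 2354 kept their direction and side of the threshold, and 11 fell short of the study's threshold of 2-fold and an unadjusted p under 0.05. None reversed. The counts of probes moved more. By quantile normalisation 4401 probes were higher, and 1298 rose and 1628 fell alike. By the median of probes detected on all arrays 3087 were higher and 4630 lower, with 890 rises and 2445 falls alike. By the 75th percentile 4145 were higher and 3586 lower, with 1302 and 1895 alike. At that threshold 229 rose and 486 fell, with 13 and 169 alike. With the last BeadChip alone against saline, which leaves 1 array without AAA, 345 rose and 97 fell alike. The cause of the shifts with scaling was not tested. Leaving out 1 array gave 7274 to 8485 probes higher, 1932 to 2277 lower, 2809 to 3463 rises alike and 916 to 1093 falls alike. Of the 54 detailed genes that moved alike, 35 to 54 were still alike with 1 array left out (35 without AAA 1), 38 with the BeadChip as a random block (correlation 0.0589), and 31 with the methods' t-test in place of limma, while all 54 were still called in each.

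Replicate numbers did not pair the arrays, since same-numbered arrays of different groups had a median correlation of -0.0405 over 16 pairs against 0.00893 over 91 others. With the replicate number as a block 8200 probes were higher and 2142 lower, and 3154 rose and 994 fell alike. Few arrays and wide intervals limit which genes can be placed within 1.5-fold, so a gene not counted as alike is not shown to differ between outcomes. Probes at the detection limit give only a bound.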
